A study of Mus musculus with 2 samples.

Results

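The contractile genes of smooth muscle described here are Acta2, Myh11, Tagln, Actg2, Des, Cnn1, Lmod1, Mylk, Myl9 and Synpo2. They were taken from a fixed list of names, and all 10 were found in the count files. They were measured in single cells of the intestinal lamina propria of C57BL/6 mice killed at 11 weeks, with 1 library per genotype. The ApcMin library came from ApcMin/+;Lef1 +/+ mice and the VApcMinL library from ApcMin/+;Lef1 fl/fl; Villin-Cre mice, so both carry the Min allele of the tumour suppressor Apc, and VApcMinL also has a constitutive deletion of the transcription factor gene Lef1 in the cells where Villin drives Cre, the gut epithelium. How many mice went into a library is unknown. Tissue was digested with EDTA and Liberase TL and sorted as DAPI-Ter119-Epcam-CD45- cells, and the 3' ends of transcripts were counted as unique molecules (UMIs) on the 10x Genomics platform with kit v3. The ApcMin file holds 93203061 UMIs and the VApcMinL file 101609269. Barcodes with at least 1000 UMIs, of which mitochondrial genes gave at most 20%, were kept as cells, which left 7593 cells in ApcMin with a median of 9663 UMIs and 8597 in VApcMinL with a median of 6792.

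The question was in which cells the contractile genes are found together, in smooth muscle or in Pdgfra-bearing fibroblasts that take on contractile genes (myofibroblasts), and how the libraries compare. Pdgfra encodes a receptor for platelet-derived growth factor that marks fibroblasts of the gut wall. A cell with at least 1 Pdgfra UMI was called Pdgfra-positive. There were 3521 such cells in ApcMin (46.4% of kept cells) and 4019 in VApcMinL (46.7%). They were deeper than the other cells, with medians of 13307 and 10462 UMIs against 5620.5 and 3919. Levels are given in CPM, the UMIs of a gene relative to all UMIs of the cells named, where 10000 CPM is 1% of the UMIs. The counts are of transcript ends, so genes can be set side by side without scaling for length, although genes differ in how well their 3' ends are captured. With 1 library per genotype no difference between genotypes could be tested. Intervals in parentheses are exact 95% Poisson limits of a level, Clopper-Pearson limits of a share or binomial limits of a ratio, and cover counting error only. What separates the mice, sorts or runs behind the libraries cannot be told apart from genotype.

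Lef1 itself stood at 1.58 CPM (1.32 to 1.88) in ApcMin and 1.54 CPM (1.28 to 1.83) in VApcMinL, a ratio of 0.973 (0.752 to 1.26). This value is no check of the genotype, because the sort was against epithelium, the deleted exons are not given, and counts from transcript ends need not miss a deleted exon. The sort was also against leukocytes and red cells, yet clusters of plasma cell-like, B cell-like and erythroid-like cells were present, with 599, 838 and 829 cells in ApcMin and 992, 478 and 314 in VApcMinL. They fall mostly on the Pdgfra-negative side and serve here as the background of detection.

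Smooth muscle shortens when calcium, through calmodulin, activates the myosin light chain kinase (Mylk), which phosphorylates the regulatory light chain (Myl9) of a motor whose heavy chain is Myh11. The motor pulls on thin filaments of smooth muscle actins (Acta2 around vessels and widely, Actg2 chiefly in visceral muscle) that carry calponin (Cnn1) and transgelin (Tagln), are nucleated with leiomodin (Lmod1), and are tied to desmin filaments (Des) and actin-bundling synaptopodin-2 (Synpo2). In the gut these genes mark the muscle layers, the thin muscularis mucosae and its strands in the villi, the muscle of vessel walls and some pericytes, while myofibroblasts under the epithelium carry Acta2 and part of the rest. Most of these genes are regulated by serum response factor, which binds a motif called the CArG box.

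The promoter table, RefSeq sequence on GRCm38.p6, holds 7 of the 10 genes and lacks Myh11, Tagln and Actg2. In the 250 bases before each start, searched on both strands for a CArG box with at most 1 base other than A or T in its core of 6 bases, 2 of the 7, Acta2 and Myl9, held such a box, and each held a pair. Of all 32851 promoters listed, 8.59% held at least 1, 0.670% held 2 or more, and 1.47% held a box with no other base in the core, as Myl9 did. The boxes are printed because both genes are read in the Pdgfra-positive and the Pdgfra-negative cells, with the box in capitals and 10 bases on each side. In Acta2 they lie on the minus strand at chr19:34255438-34255467 and chr19:34255388-34255417, 84 and 34 bases before the RefSeq start, where the annotation also places an exon of an Acta2 transcript. In Myl9 they lie on the plus strand at chr2:156775293-156775322 and chr2:156775355-156775384, 161 and 99 bases before the start. A match of letters says nothing of binding.
Acta2 distal box: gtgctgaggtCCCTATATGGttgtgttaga
Acta2 proximal box: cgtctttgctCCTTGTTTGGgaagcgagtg
Myl9 distal box: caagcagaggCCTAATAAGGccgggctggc
Myl9 proximal box: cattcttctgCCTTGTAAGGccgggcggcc

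The actins differed in where they were found. Acta2 (ENSMUSG00000035783, chromosome 19, 34241090 to 34255590 on GRCm38) stood in Pdgfra-positive cells at 40.01 CPM (38.3 to 41.8) in ApcMin and 63.3 CPM (61.0 to 65.7) in VApcMinL, and in Pdgfra-negative cells at 50.7 and 117. It was thus present on both sides of the Pdgfra divide and higher in VApcMinL on both, although in Pdgfra-positive cells the log2 ratio of VApcMinL over ApcMin was 0.66 but -0.18 (-0.53 to 0.18) with every cell thinned to 1000 UMIs, and so given equal weight, before Pdgfra was called. Actg2 (ENSMUSG00000059430, chromosome 6, 83512905 to 83536265) was scarcer, at 1.62 and 3.85 CPM in Pdgfra-positive cells and 5.60 and 27.4 in Pdgfra-negative cells. Its level in Pdgfra-positive cells was 0.290 of that in Pdgfra-negative cells in ApcMin and 0.140 in VApcMinL, while for Acta2 the same ratio was 0.789 and 0.542. The coding sequences of the actin genes are close to identical, so reads that fall within them may be assigned to neither.

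Among the motor genes, the heavy chain Myh11 (ENSMUSG00000018830, chromosome 16, 14194535 to 14291372) was the more restricted to Pdgfra-negative cells, with 19.7 and 60.0 CPM in ApcMin and VApcMinL against 2.97 CPM (2.50 to 3.49) and 13.9 CPM (12.8 to 15.0) in Pdgfra-positive cells. The light chain Myl9 (ENSMUSG00000067818, chromosome 2, 156775420 to 156781658), whose promoter boxes are printed above, showed another pattern. In Pdgfra-positive cells it stood at 72.1 and 71.1 CPM, and in Pdgfra-negative cells at 28.6 and 74.9. Mylk (ENSMUSG00000022836, chromosome 16, 34745210 to 35002420) was the most abundant member in Pdgfra-positive cells of both libraries, with 84.7 and 121 CPM there and 36.0 and 116 in Pdgfra-negative cells. The kinase and its light chain therefore reach broadly into Pdgfra-positive cells, in which the smooth muscle heavy chain gene Myh11 had few counts. Other myosin heavy chain genes were not examined.

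Of the thin filament genes, Tagln (ENSMUSG00000032085, chromosome 9, 45929619 to 45936058) followed Acta2, with 40.01 and 76.1 CPM in Pdgfra-positive cells and 48.8 and 109.8 in Pdgfra-negative cells. Cnn1 (ENSMUSG00000001349, chromosome 9, 22099216 to 22109630) followed Myh11 and Actg2, with 0.914 and 1.55 CPM against 3.93 and 12.3. Lmod1 (ENSMUSG00000048096, chromosome 1, 135324807 to 135368065) lay between, with 2.09 and 5.22 against 3.73 and 9.86. The anchors were the members that leaned most to Pdgfra-positive cells. Des (ENSMUSG00000026208, chromosome 1, 75360329 to 75368579) stood there at 29.4 and 31.2 CPM, against 8.05 and 28.8 in Pdgfra-negative cells, and Synpo2 (ENSMUSG00000050315, chromosome 3, 123076519 to 123236149) at 14.9 and 22.3 against 3.57 and 12.0. In VApcMinL the ratio of the 2 Des levels, 1.08 (0.998 to 1.18), was within counting error of 1. The Pdgfra-negative levels average over a mixture of cell types, described below.

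**Figure D1:**
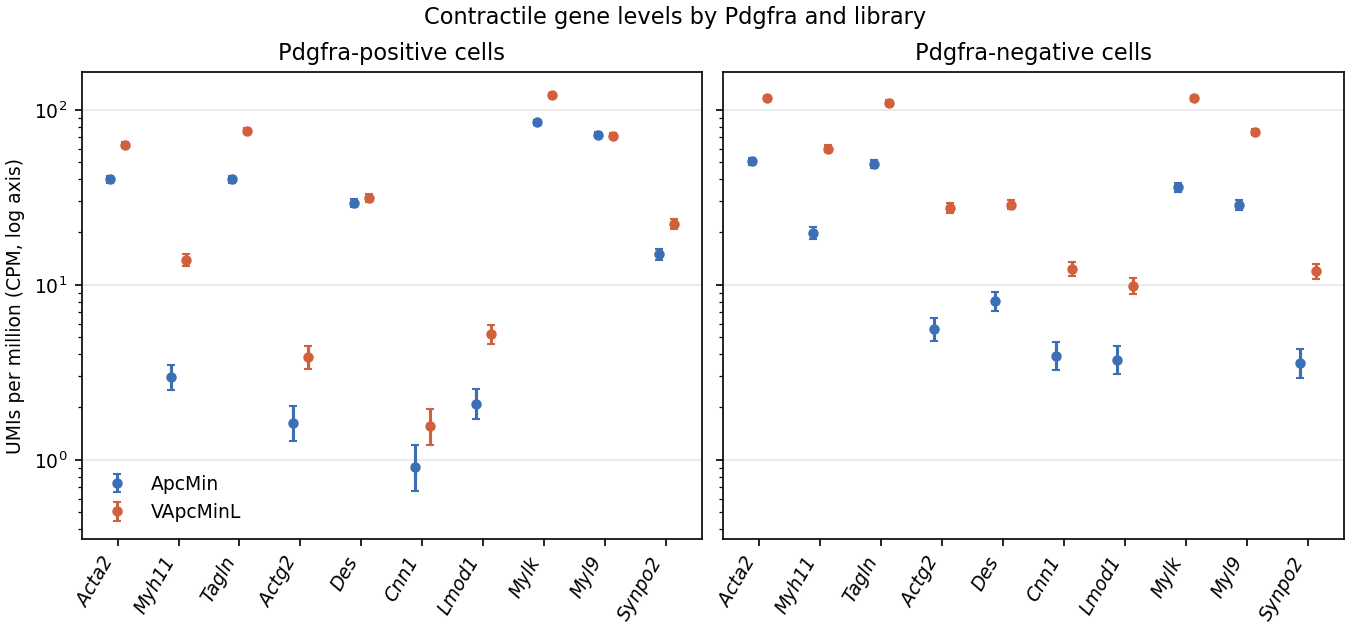
Level of each of the 10 genes (CPM on a log axis) in Pdgfra-positive and Pdgfra-negative cells, 1 point per library with its exact 95% Poisson interval. In Pdgfra-positive cells Mylk is highest in both libraries, at 84.7 and 121 CPM, and Cnn1 lowest, at 0.914 and 1.55.

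Ordered by the ratio of Pdgfra-positive over Pdgfra-negative level, the members fell into the same 3 groups in both libraries. Synpo2, Des, Myl9 and Mylk were at the Pdgfra-positive end, with ratios from 2.35 (Mylk) to 4.18 (Synpo2) in ApcMin and from 0.949 (Myl9) to 1.86 (Synpo2) in VApcMinL. Tagln, Acta2 and Lmod1 were intermediate, from 0.561 to 0.819 in ApcMin and from 0.530 to 0.693 in VApcMinL. Actg2, Cnn1 and Myh11 were lowest, from 0.151 (Myh11) to 0.290 (Actg2) in ApcMin and from 0.126 (Cnn1) to 0.231 (Myh11) in VApcMinL. Myh11, Actg2 and Cnn1, markers of differentiated smooth muscle, were thus the members least represented beside Pdgfra.

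Between the libraries, the summed level of the 10 genes in Pdgfra-positive cells was 289 CPM (284 to 293) in ApcMin and 409 CPM (403 to 415) in VApcMinL, a log2 ratio of 0.50 (0.47 to 0.53). Past 2-fold higher in VApcMinL were 3 of the 10, where 8.07% of all 14873 genes with at least 50 UMIs were, and none was past 2-fold lower. The 3 were Myh11, with a log2 ratio of 2.22 (1.96 to 2.49), Lmod1, with 1.32 (0.98 to 1.67), and Actg2, with 1.24 (0.85 to 1.64). Neither Myl9 nor Des differed by more than counting error, at log2 -0.02 (-0.09 to 0.05) and 0.08 (-0.02 to 0.19). The Pdgfra-positive cells of the libraries are different mixtures, in which a cluster led by Adamdec1 gave 14.1% and 29.98% of the cells, one led by Pi16 37.3% and 24.4% and a subepithelial cluster 0.909% and 2.04%, and the part of this in the ratio was not tested. The members' median log2 ratio was 0.71, beside 0.04 over all genes tested. With cells thinned before Pdgfra was called 6 members had at least 50 UMIs, which leaves out Myh11, Lmod1, Actg2 and Cnn1, and Synpo2 alone reached 2-fold, where 2.26% of genes did. Actg2 was under 2-fold, at log2 0.82, without the few cells in which the members made up at least 1% of UMIs, and at 0.86 without the 1% of cells with the most and the fewest genes.

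In Pdgfra-negative cells the sum was 209 CPM (204 to 214) in ApcMin and 568 CPM (560.2 to 576) in VApcMinL, a log2 ratio of 1.44 (1.40 to 1.49). All 10 members were past 2-fold higher, from log2 1.17 (Tagln) to 2.29 (Actg2), and 7 of 10 with thinned cells, without Des, Mylk and Myl9, where 10.7% of genes were. At full depth 32.4% of all genes were past 2-fold higher as well, and the median over all genes was itself 0.66, beside 1.63 over the members. The Pdgfra-negative cells of the libraries are different mixtures. Cells of a cluster led by the pancreatic acinar gene Ctrb1 numbered 913 in ApcMin and 258 in VApcMinL, erythroid-like cells 813 and 308, and blood endothelial-like cells 142 and 663. The name of the Ctrb1-led cluster is uncertain, since none of the acinar markers was detected widely in it, and at resolution 0.8 the acinar-like cluster had 38 and 32 cells, beside several erythroid-like clusters, the largest of 883 and 237. Epithelial-like cells held 6.88% of the Pdgfra-negative UMIs in ApcMin and 36.9% in VApcMinL. Without the Ctrb1-led and erythroid-like clusters the summed log2 ratio was 0.79 with 5 of 10 members past 2-fold, where 13.4% of genes were, and without the epithelial-like cluster as well it was 1.31 with 10 of 10, where 14.7% were. Beyond these values the part of the mixture in the ratio was not tested.

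How many cells held the transcripts was a separate matter from their level. In Pdgfra-positive cells the share with a UMI ran from 1.16% (Cnn1) to 42.5% (Mylk) in ApcMin and from 1.29% (Cnn1) to 48.3% (Mylk) in VApcMinL. In Pdgfra-negative cells it ran from 0.467% to 5.65% and from 1.27% to 16.1% for the same pair of genes. Such shares grow with depth, so each cell was also thinned at random to 1000 UMIs. Acta2 was then found in 2.44% and 3.61% of Pdgfra-positive cells, down from 9.63% and 13.8%, and in 0.810% and 2.71% of Pdgfra-negative cells, down from 2.16% and 4.94%. For Myh11, Actg2, Cnn1 and Lmod1 thinning reversed the order of the classes in both libraries. Unthinned, Myh11 was found in 1.96% and 4.65% of Pdgfra-positive and 1.15% and 2.71% of Pdgfra-negative cells, and thinned in 0.256% and 1.29% against 0.614% and 1.75%.

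Cells that should lack these genes gave the background. In plasma cell-like cells, with median depths of 5786 and 2994.5 UMIs, no member was found in more than 0.835% of cells in ApcMin and 1.81% in VApcMinL (Acta2 in both). In B cell-like cells, with medians of 4534 and 4415, the highest was Tagln with 1.91% and 3.97%, and in erythroid-like cells, with medians of 11365 and 7399, Acta2 with 0.724% and 2.23%. The full-depth shares of Acta2 and Tagln in Pdgfra-positive cells, 9.63% and 12.9% in ApcMin and 13.8% and 17.7% in VApcMinL, are above all of these. Those of Cnn1, 1.16% and 1.29%, stand against at most 0.241% and 0.504% for the same gene in these clusters, and those of Actg2, 1.51% and 2.31%, against at most 0.241% and 0.628%. After thinning the VApcMinL shares were 0.274% against 0.101% for Cnn1 and 0.348% against 0.418% for Actg2. The 0.418% is 2 of 478 B cell-like cells, while plasma cell-like and erythroid-like cells of VApcMinL had no Actg2 after thinning. Of those 478 cells, 1 had at least 1% of its UMIs from the members. At equal depth neither Cnn1 nor Actg2 thus stood above the highest of its backgrounds by more than counting error. In ApcMin the thinned share of Myh11 was 0.256% against 0.239% in B cell-like cells, and that of Lmod1 0.199% against 0.119%. In VApcMinL these genes were found in 1.29% and 0.498%, against at most 0.209% for each. Pdgfra was itself found in 2.0% and 3.12% of plasma cell-like cells, 3.22% and 2.72% of B cell-like cells and 1.93% and 1.91% of erythroid-like cells. A single Pdgfra UMI can thus also be found in cells that should lack the gene.

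Co-detection differed between the classes. For each of the 45 gene pairs the cells with both genes were taken as a percent of the cells with either, in cells thinned to 1000 UMIs. In Pdgfra-positive cells the median over pairs was 1.39% in ApcMin and 4.16% in VApcMinL, and no cell held both genes of 13 and 2 pairs. In Pdgfra-negative cells the medians were 20.2% and 24.4%, every pair was found together in some cell, and 14 and 21 pairs passed 25%, a mark no pair reached in thinned Pdgfra-positive cells. This percent is limited by how unequally the genes of a pair were detected, so that even with full overlap 19 and 24 pairs could pass 25% in Pdgfra-positive and 38 and 40 in Pdgfra-negative cells. As a percent of the highest value its detection allowed, a measure added after the values were seen, the median pair reached 13.2% and 15.7% in Pdgfra-positive and 49.5% and 49.4% in Pdgfra-negative cells. Without thinning the medians were 5.17% and 8.21% in Pdgfra-positive and 19.8% and 24.2% in Pdgfra-negative cells. As a percent of the highest value allowed they were 35.2% and 36.8% against 54.0% and 58.4%, a smaller gap than in thinned cells. Then 2 pairs in each library passed 25% in Pdgfra-positive cells, the highest being Mylk with Myl9 at 32.6% and 32.3%.

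After thinning, the pair that held together in Pdgfra-positive cells was Acta2 and Tagln, at 20.0% in ApcMin and 20.2% in VApcMinL, the highest of the 45 in both. In Pdgfra-negative cells it reached 35.8% and 43.2%. Myh11 with Tagln was the highest pair of VApcMinL Pdgfra-negative cells, at 43.5% (60 cells), and Actg2 with Cnn1 that of ApcMin, with both in 6 cells. In Pdgfra-positive cells Myh11 with Tagln gave 5.33% and 14.2%. At full depth the pair in the most Pdgfra-positive cells was Mylk with Myl9, in 20.6% and 20.0% of them, against 4.69% and 7.04% for Acta2 with Tagln.

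**Figure D2:**
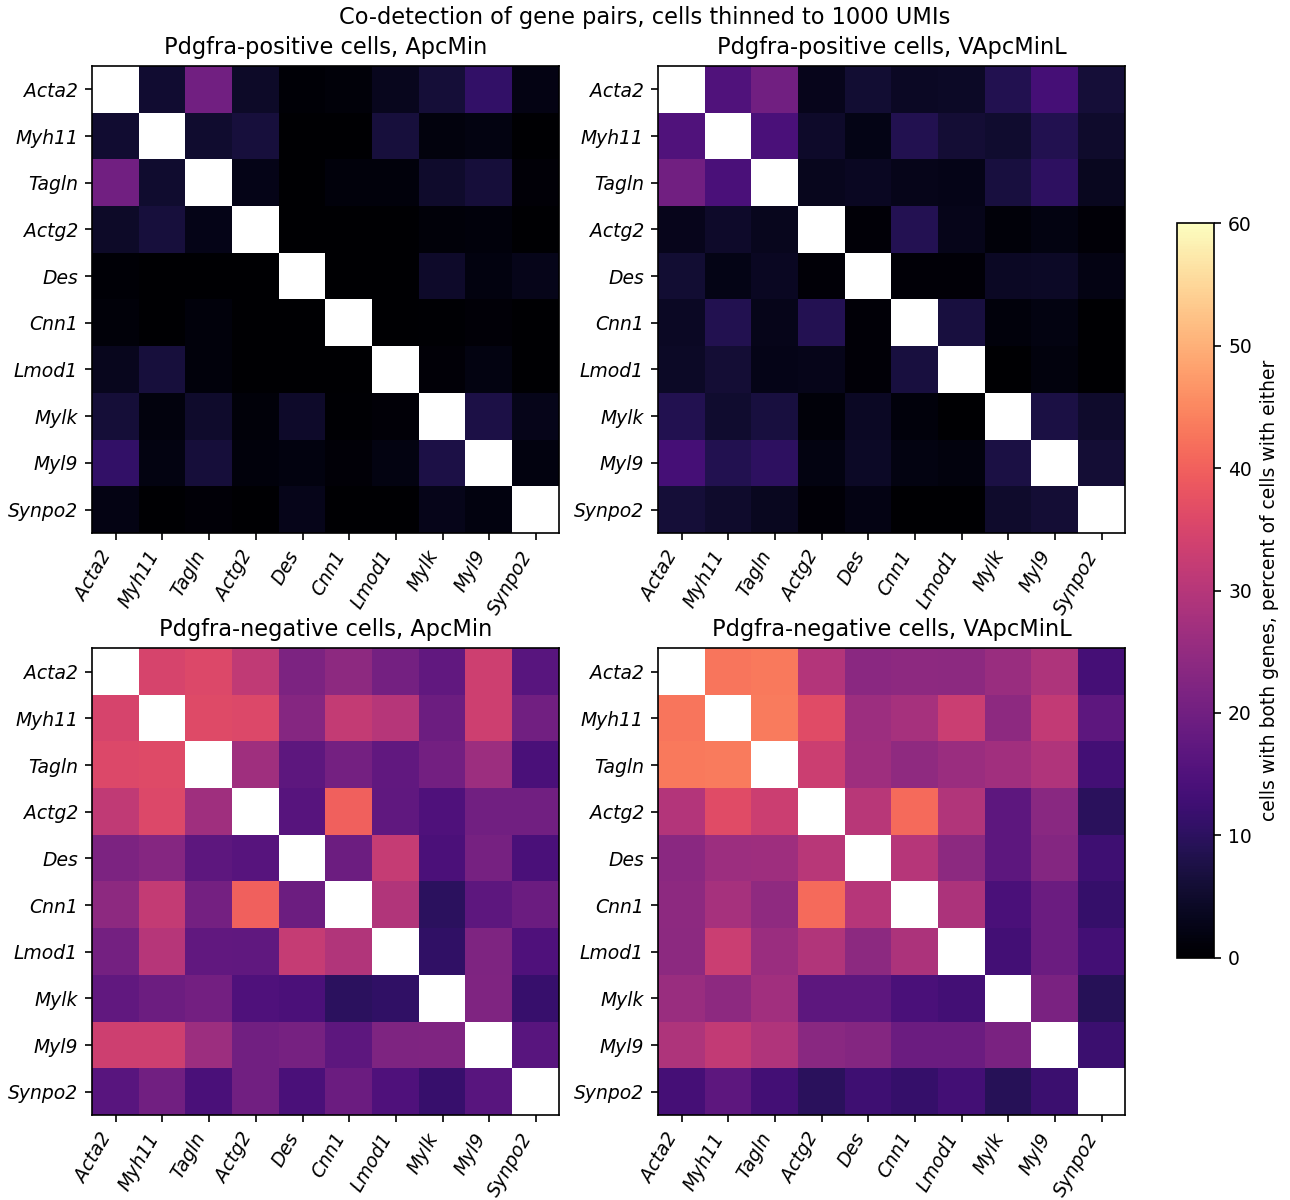
Cells with both genes of a pair as a percent of cells with either (colour), after thinning each cell to 1000 UMIs, for Pdgfra-positive cells (upper panels) and Pdgfra-negative cells (lower panels) of each library. The median over the 45 pairs is 1.39% and 4.16% in the upper panels and 20.2% and 24.4% in the lower.

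The same split shows in how many members a single cell held. At least 5 of the 10 were found, after thinning, in 16 Pdgfra-negative cells of ApcMin and 58 of VApcMinL, and in 3 and 11 Pdgfra-positive cells. At least 1 was found in 3.68% and 9.55% of Pdgfra-negative but 18.9% and 23.1% of Pdgfra-positive cells. At full depth all 10 were found in 11 and 21 Pdgfra-negative cells, and in 0 and 2 Pdgfra-positive cells, where the 0 of 3521 allows a share of up to 0.105%. At least 5 at full depth were found in 129 and 249 Pdgfra-positive cells and 27 and 107 Pdgfra-negative cells. Within each library the deeper class thus had the higher count.

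Read from the other side, cells holding a member were divided by Pdgfra at rising counts of the member. Of cells with at least 1 Acta2 UMI 79.4% in ApcMin and 71.1% in VApcMinL were Pdgfra-positive, with 84.3% and 69.3% of those with at least 3 UMIs and 76.6% and 54.3% of those with at least 10, so that only VApcMinL had a lower share at high counts by more than counting error. For Tagln the shares were 81.6% and 74.3% at 1 UMI, 83.4% and 70.7% at 3 and 68.4% and 53.3% at 10. Myh11 reached much lower shares. Its cells were Pdgfra-positive in 59.5% and 60.1% with at least 1 UMI, but in 1 of 14 and 14 of 51 with at least 10. For Actg2 the counts with at least 10 UMIs were 0 of 7 and 2 of 24, and for Cnn1 with at least 3 UMIs 0 of 12 and 4 of 35. The 0 of 7 allows a share of up to 41.0% and the 0 of 12 one of up to 26.5%. High counts of Acta2 and Tagln therefore occurred beside Pdgfra, and high counts of Myh11, Actg2 and Cnn1 mostly without it. With at least 10 UMIs, Des cells were Pdgfra-positive in 4 of 12 and 8 of 19, and Lmod1 cells in 0 of 4 and 1 of 11. The 0 of 4 allows a share of up to 60.2%. For Mylk the counts were 43 of 73 and 69 of 149, and for Myl9 44 of 62 and 39 of 90. For Synpo2 they were 1 of 1 and 1 of 6.

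The transcripts were concentrated in few cells. The 10 cells with the most UMIs of a gene held 64.4% of all Myh11 UMIs in ApcMin and 47.3% in VApcMinL, and 64.2% and 56.4% of those of Cnn1. For Acta2 they held 34.5% and 29.6%. For Mylk they held 7.40% and 10.5%, which places the kinase at the spread-out end of the list. Cells in which the 10 genes together made up at least 1% of UMIs are called contractile-rich. They numbered 22 in ApcMin, 0.290% of kept cells (0.182 to 0.438), and 67 in VApcMinL, 0.779% (0.604 to 0.989). They held 27.5% and 43.9% of all UMIs of the members. Without them the summed level was 188 and 269 CPM, against 258 and 477 with them, and the log2 ratio 0.52 against 0.88.

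The class is a range on a scale and not a cell type: 12 cells of ApcMin and 38 of VApcMinL lay just under its limit, from 0.5 to 1%. Pdgfra-positive were 5 of 22 (22.7%, 7.82 to 45.4) and 11 of 67 (16.4%, 8.49 to 27.5). That share was lower further up the scale. In cells at 0.2 to 1% of UMIs, a band chosen after the values were seen, 76.8% of 69 cells and 65.1% of 186 were Pdgfra-positive. From 1 to 2% it was 4 of 5 and 7 of 22, from 2 to 5% 0 of 11 and 3 of 24, and from 5% upwards 1 of 6 and 1 of 21. Cells from 5% upwards were also shallow, with medians of 1487.5 and 1962 UMIs, and the part of depth in their Pdgfra share was not tested. The 0 of 11 allows up to 28.5%. The Pdgfra-positive contractile-rich cells had a median of 1 Pdgfra UMI in ApcMin and 2 in VApcMinL, against 7 and 5 in the other Pdgfra-positive cells. With at least 5 members detected as the definition, in place of 1% of UMIs, 82.7% and 69.9% of the cells were Pdgfra-positive, while of cells with at least 8 members 4 of 20 and 21 of 80 were. The contractile-rich cells had median mitochondrial shares of 7.33% and 5.50%, against 2.71% and 3.20% in all kept cells. Scrublet, a caller of doublets, placed 0 and 6 of them among its highest scores, none of them Pdgfra-positive.

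**Figure D3:**
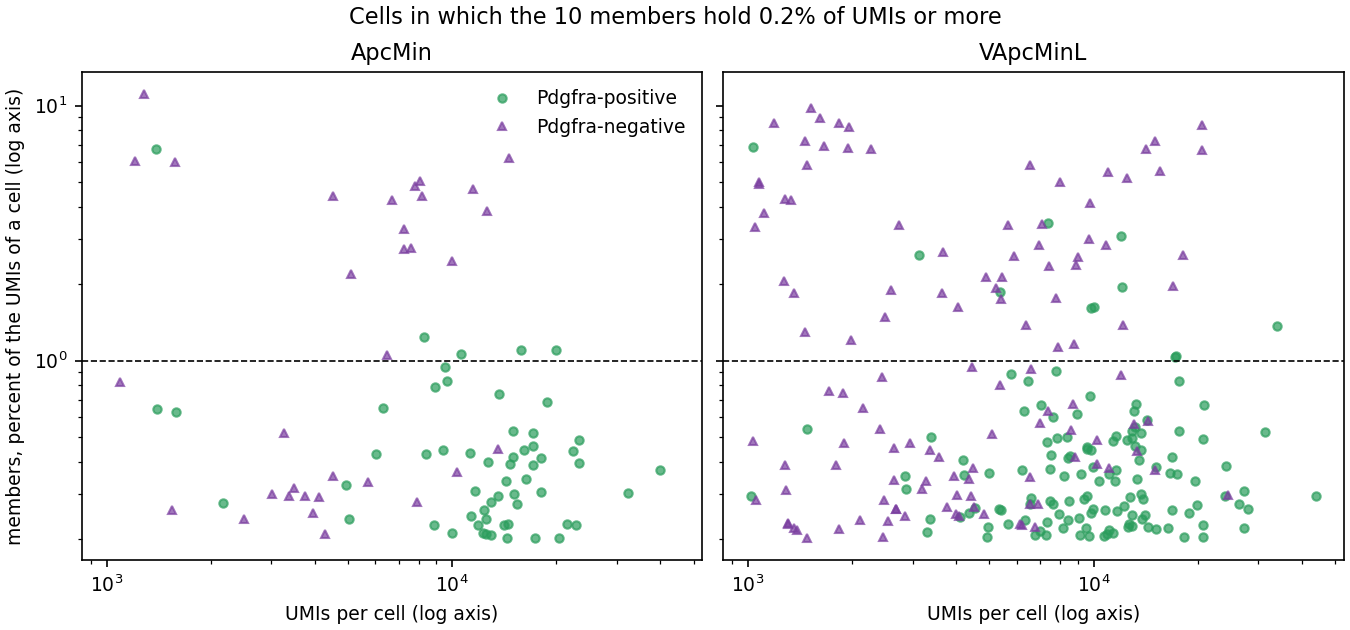
Percent of a cell's UMIs from the 10 genes against the UMIs of the cell (both axes log), for every cell at 0.2% or more, 1 point per cell coloured by Pdgfra, 1 panel per library, with the 1% threshold as a dashed line. At 2% or more there are 17 cells in ApcMin, 1 of them Pdgfra-positive, and 45 in VApcMinL, 4 of them Pdgfra-positive.

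Within the contractile-rich cells, Pdgfra-positive and Pdgfra-negative cells differed in which members they held. They differed in depth and quality too, with medians of 10610 and 10034 UMIs against 7258 and 5295 and median mitochondrial shares of 2.93% and 3.71% against 7.95% and 6.39%. In the Pdgfra-positive cells the sum was 12518 CPM in ApcMin and 17441 in VApcMinL, and in the Pdgfra-negative cells 40686 and 40659.7. Past 2-fold lower in the Pdgfra-positive cells were 8 of the 9 members with enough counts in ApcMin, where 20.8% of genes were, and 8 of 10 in VApcMinL, where 13.5% were. The members outside these counts were Tagln in both libraries and Acta2 in VApcMinL. Tagln differed least, with log2 ratios of -0.94 and -0.52, then Acta2 with -1.45 and -0.85. Des and Cnn1 differed most or nearly so, with -4.55 and -3.40 for Des and -4.13 and -3.59 for Cnn1. In ApcMin, however, Des, Cnn1 and Lmod1 each had only 3 UMIs in the Pdgfra-positive cells, against 153, 114 and 92. They thus had enough counts only through the Pdgfra-negative cells. The limits of their ratios were wide, at 0.00870 to 0.127 for Des and 0.0116 to 0.172 for Cnn1. Acta2 and Tagln gave 34.4% and 46.4% of the member UMIs of the Pdgfra-positive cells in ApcMin, and 31.5% and 35.4% in VApcMinL. Since the total of the members sets who is in the class, these values describe its make-up only.

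The other genes of these cells followed the same divide. Of 473 genes with enough UMIs in each library, 26 were past 2-fold higher in the Pdgfra-positive cells in both libraries and 56 past 2-fold lower. Highest were the matrix genes Dpt (log2 4.65 and 2.28 in ApcMin and VApcMinL), Col6a3 (3.39 and 2.22), Col6a2, Col6a1, Col1a1, Col1a2 and Dcn, with Nbl1, Tagln2 and Tmsb10. Among the lowest, beside the members Cnn1, Des and Actg2, were the early response genes Atf3 (-3.55 and -4.50), Nr4a1, Klf4 and Id2, the adaptor Sorbs2, and the tropomyosin Tpm2 (-2.27 and -2.45). The median cell held 257 and 226 UMIs of the 10 fibroblast markers if Pdgfra-positive, and 3 and 5.5 if Pdgfra-negative. Summed, the list stood at 22928 and 19906 CPM against 4606 and 6273. For the 12 smooth muscle markers outside the members the medians were 27 and 40 against 48 and 32, and the summed levels 2911 and 3168 CPM against 8425 and 11091, led by Tpm2. Pdgfra belongs to the fibroblast list and defines the split, so part of the first difference is built in. The markers of T cells and innate lymphoid cells had no UMI in any of these cells. Kit, a marker of interstitial cells of Cajal, had none either, which in the smallest group allows up to 65.9 CPM. Of the other markers listed for that type, Etv1 had 27 UMIs (482 CPM) in 1 of the 5 Pdgfra-positive cells of ApcMin. Ano1 and Gpr20 had none there.

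When cells were clustered without the 10 genes, which gave 17 clusters, no cluster could be named from the smooth muscle markers. The contractile-rich cells lay in a few clusters of other leading genes: 11 of ApcMin and 42 of VApcMinL in an unnamed cluster led by Adamdec1, 7 and 11 in the pericyte-like cluster, and 3 and 10 in a fibroblast-like cluster led by Pi16. The pericyte-like cluster was named from Notch3, Cox4i2, Higd1b and Ndufa4l2, and Myh11, Acta2, Tagln and Lmod1 were also among its 10 leading genes. The Pdgfra-negative contractile-rich cells were then divided, after the values were seen, into those in the pericyte-like cluster (7 and 10) and those elsewhere (10 and 46). Elsewhere, the notch receptor Notch3 of mural cells was found in 1 of 10 and 0 of 46 cells, and in 7 of 7 and 10 of 10 of the pericyte-like. Since Notch3 helped to name the cluster, this contrast is partly built in. The 0 of 46 allows a share of up to 7.71%. Of the listed genes, 3 that set the groups apart were chosen after their values were seen. Pcp4 was found in 5 of 10 and 22 of 46 cells elsewhere and in 0 of 7 and 0 of 10 of the pericyte-like, the hedgehog-binding Hhip in 4 of 10 and 18 of 46 against 0 of 7 and 0 of 10, and the adhesion gene Pgm5 in 8 of 10 and 29 of 46 against 3 of 7 and 4 of 10. Hhip is a leading gene of the Adamdec1-led cluster, so its contrast is also partly built in. A 0 of 7 allows up to 41.0% and a 0 of 10 up to 30.8%.

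Members were divided along the same line. Actg2 gave 5.55% and 6.97% of the member UMIs of the cells elsewhere and 0.964% and 1.20% of those of the pericyte-like cells. Cnn1 gave 3.73% and 3.11% against 1.0% and 0.859%, and Mylk 12.2% and 11.9% against 6.94% and 6.57%. Myh11 leaned the other way, with 9.36% and 11.1% elsewhere and 12.3% and 19.7% in the pericyte-like cells. The visceral actin, calponin and the kinase thus took a larger part outside the pericyte-like cluster, and the heavy chain a smaller one, in both libraries.

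**Figure D4:**
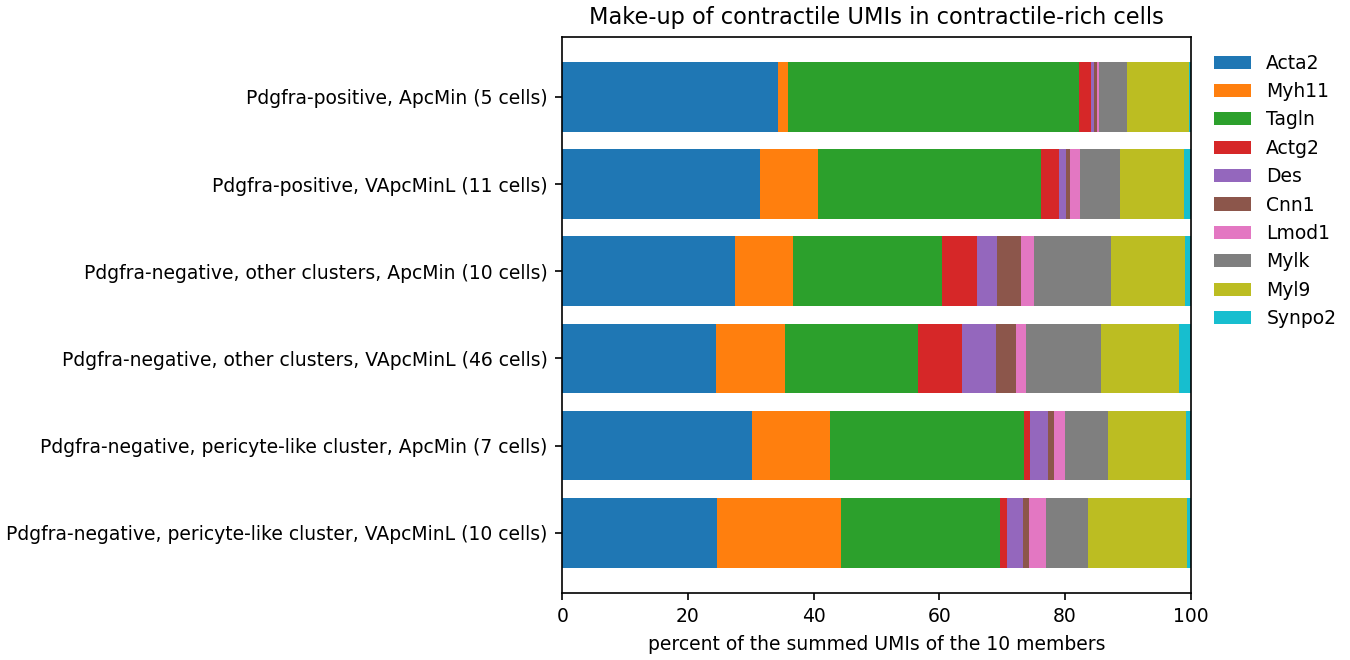
Make-up of the summed UMIs of the 10 genes in contractile-rich cells, 1 bar per library for Pdgfra-positive cells, Pdgfra-negative cells outside the pericyte-like cluster and Pdgfra-negative pericyte-like cells, each colour 1 gene and each bar 100%. Myh11 gives 1.57% and 9.22% in Pdgfra-positive cells of ApcMin and VApcMinL, 9.36% and 11.1% in the middle group and 12.3% and 19.7% in the last.

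The pericyte-like cluster, 43 cells in ApcMin and 74 in VApcMinL, had the highest summed level of the members of any cluster, at 13639 CPM (13148 to 14145) and 10175 CPM (9820.1 to 10540.3). Each member was highest there in both libraries, except Synpo2 in VApcMinL. At resolution 0.8 Actg2 was instead highest in a Cfd-led cluster with the adipocyte genes Adipoq, Retn and Cidec among its leading genes, at 415 and 313 CPM against 117 and 95.3, as Cnn1 was in VApcMinL, at 112 against 65.7. Yet few of the pericyte-like cells carried the level of their cluster. An Acta2 UMI was found in 9 of them in ApcMin (20.9%) and 18 in VApcMinL (24.3%), and all contractile-rich cells of the cluster were among these. Divided by Acta2, a split made after the values were seen, Myh11 stood at 4076 and 4528 CPM in cells with Acta2 and at 121 and 136 in cells without. Actg2 stood at 311 and 240.5 in the first and had no UMI in the second, which allows up to 27.9 and 20.1 CPM. Mylk (597 and 512 CPM), Myl9 (453 and 512) and Des (219 and 370.2) were still present in the cells without Acta2. The potassium channel genes Kcnj8 and Abcc9, markers of pericytes, differed most of the pericyte markers between these cells. Kcnj8 stood at 49.7 and 141 CPM with Acta2 and 1140.2 and 1579 without, and Abcc9 at 410.1 and 389.7 against 3307 and 2352. Mcam went the other way, at 410.1 and 415 against 249 and 283. The cells with Acta2 were deeper, with medians of 7896 and 6108 UMIs against 3759.5 and 2848.5. When the members were used for clustering, no cluster was named pericyte-like. Nearly all of these cells then lay in a larger cluster of 79 and 242 cells that was named subepithelial Pdgfra-high-like. It had Wif1 and 7 of the members among its 10 leading genes, a sum of 6524 and 5787 CPM and Pdgfra in 53.0% of its cells.

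Second in the order of these 17 clusters in both libraries was the subepithelial Pdgfra-high-like cluster, 32 and 83 cells with Bmp5 and Bmp7 among their leading genes, which lie next to the epithelium in the gut. The sum there was 2035 CPM (1897 to 2179) and 3271 CPM (3149 to 3396). Acta2 stood at 616 and 738 CPM, Mylk at 317 and 614, and Tagln at 494 and 974. Myh11 reached 139.6 and 159 CPM, while Cnn1 and Lmod1 stayed at or under 2.49 CPM in both. Synpo2 stood at 54.9 and 154, against 211 and 122 in the pericyte-like cells. Actg2 had no UMI in ApcMin and stood at 68.6 in VApcMinL, from 57 UMIs in 4 cells, of which 38 lay in 1 cell. In this cluster the members form a partial set, with little calponin or leiomodin, but in a Wif1-led cluster of the same name at resolution 0.8 Cnn1 stood at 22.5 and 22.4 CPM and Lmod1 at 6.14 and 24.6. Of these cells 0 and 2 were contractile-rich, and the 0 of 32 allows a share of up to 10.9%. Clustered with the members, these cells lay in an unnamed Adamdec1-led cluster of 569 and 1340 cells, with a sum of 774 and 1148 CPM. At the finer resolution of 0.8 they were not second in order, because the Cfd-led cluster stood at 4474 and 3356 CPM, and a Scg2-led cluster of VApcMinL at 3471. Next among the 17 clusters were an unnamed Pdgfra-positive cluster led by Thbs2 in ApcMin, at 1319 CPM, and the Adamdec1-led cluster in VApcMinL, at 1178, which stood at 870.0 and 737 in the other library. Each of these first clusters stood above the next by more than counting error, while lower down neighbours such as the lymphatic endothelial-like cells (178 CPM (138 to 226)) and the Pi16-led cells (167 CPM (161 to 173)) of ApcMin did not. In the Thbs2-led cells Acta2 stood at 427 and 204 CPM and Myh11 at 5.03 and 8.14. The Scg2-led cluster at resolution 0.8 also has Thbs2 among its leading genes. There Acta2 stood at 384 and 685 and Myh11 at 4.49 and 406.

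Elsewhere some members stood out without Acta2. A Pdgfra-positive cluster led by Penk held Mylk at 122 and 154 CPM, Myl9 at 97.9 and 76.9 and Des at 74.7 and 47.1, with Acta2 at 2.62 and 3.34. Mylk stood at 122 and 129 CPM in epithelial-like cells, at 151 and 66.6 in lymphatic endothelial-like cells and at 61.1 and 65.2 in blood endothelial-like cells, where kinase of the same gene serves non-muscle myosin. At the bottom were the erythroid-like cells, with a sum of 3.06 and 10.1 CPM, the Ctrb1-led cells with 3.54 and 27.2, and the plasma cell-like cells with 6.95 and 25.5. In all 3 the VApcMinL value was the higher.

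**Figure D5:**
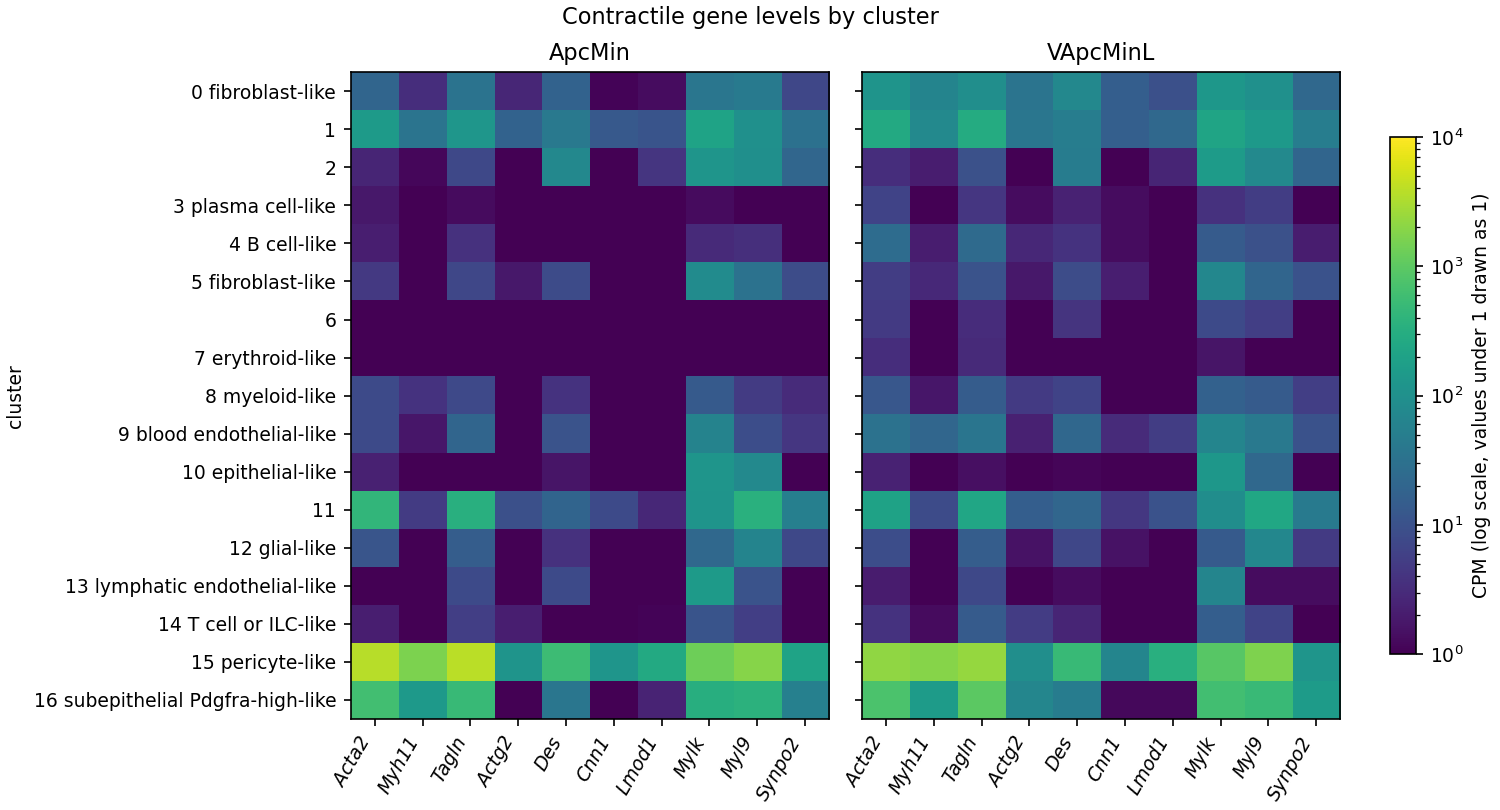
Level of each of the 10 genes (colour, CPM on a log scale) in each of the 17 clusters, 1 panel per library. Each gene is highest in the pericyte-like cluster, as Acta2 is at 3729 and 2199 CPM, except Synpo2 in VApcMinL, which is highest in the subepithelial Pdgfra-high-like cluster at 154.

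The libraries were also compared within these cells. In pericyte-like cells the summed level was lower in VApcMinL, at log2 -0.42, and in subepithelial Pdgfra-high-like cells higher, at 0.68. At resolution 0.8 the sum was 2035 and 3271 CPM in the Bmp5-led cluster of that name. In the Wif1-led cluster of that name it was 2055 and 1411, so lower in VApcMinL. In the Pi16-led fibroblast-like cluster it stood at 167 and 666 CPM, but at 118 and 117 in the Pi16-led cluster at resolution 0.8 and 109 and 123 in that made with the members, and 10 contractile-rich cells of VApcMinL and 3 of ApcMin lie in the first of these. The direction of the library difference therefore depended on the cluster. In Pdgfra-negative contractile-rich cells the sums, 40686 and 40659.7 CPM, gave a log2 ratio of 0.00 (-0.05 to 0.05). Synpo2 alone was past 2-fold higher, 1 of 10 members where 5.39% of genes were, at 345 and 693 CPM. Actg2 stood at 1281 and 2456, a log2 ratio of 0.94 (0.69 to 1.19), and Tagln at 11143 and 8850.0, -0.33 (-0.42 to -0.24). In Pdgfra-positive contractile-rich cells 2 of the 6 members with enough counts, Myh11 and Actg2, were past 2-fold higher, where 10.7% of genes were. Of the 66 Actg2 UMIs in VApcMinL, 38 came from 1 cell, and the call rests on it. Myh11 had 11 UMIs in 3 of the 5 cells of ApcMin and 208 in all 11 cells of VApcMinL.

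Over all genes with enough counts, other names led the library difference in contractile-rich cells without Pdgfra, and a member led it in those with Pdgfra. Of 292 genes ranked in the Pdgfra-negative cells, Rgs5 (log2 2.27), the muscle troponin Tnnt2 (2.25), the desmin partner Synm (1.94), Fabp4 (1.87) and Pcp4 (1.76) were highest in VApcMinL. Crip1 (-1.44), Mustn1 (-1.11), Neat1 (-1.01), Hes1 and Klf4 (-0.94) were lowest. Of 126 in the Pdgfra-positive cells, Myh11 (3.03), Col4a1 (1.64), Ccl11, the actin-binding Cald1 (1.49) and Plpp3 were highest in VApcMinL, and Gsn (-3.56), Mgp (-3.16), Vim, S100a6 and Serping1 lowest. The pericyte-like share of the Pdgfra-negative cells was 7 of 17 in ApcMin and 10 of 56 in VApcMinL, and 3 of 5 and 8 of 11 of the Pdgfra-positive cells lay in the Adamdec1-led cluster. The rest of the latter lay in the Pi16-led and Thbs2-led clusters in ApcMin and in the pericyte-like and subepithelial clusters in VApcMinL. The part of these differences in the ratios was not tested.

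Around the members, a list of 40 further genes of the contractile apparatus gave the setting. In Pdgfra-positive cells 6 of 40 were past 2-fold higher in VApcMinL, where 8.07% of all genes were, among them the smooth muscle coactivator gene Myocd at 0.812 and 2.67 CPM and the LIM protein gene Pdlim3 at 10.7 and 22.6, and the list's median log2 ratio was 0.19, beside 0.04 over all genes. None of the 8 thin filament genes was. In Pdgfra-negative cells 23 of 39 were, where 32.4% of all genes were, among them Tpm2 at 27.0 and 77.7 CPM, with a median of 1.10 beside 0.66. None was past 2-fold lower in either class. In Pdgfra-negative contractile-rich cells 3 of 33 were higher (Synm, Chrm2 and Pcp4), where 5.39% of all genes were, and the median was 0.02. In the Pdgfra-positive ones 2 of 14 were (Cald1 and Foxf1), near the 10.7% of all genes, with a median of 0.17. Between the classes, 13 of 19 were past 2-fold lower in Pdgfra-positive contractile-rich cells in ApcMin and 18 of 31 in VApcMinL, where 20.8% and 13.5% of all genes were, and 7 of 7 and 7 of 8 of the thin filament genes. Gucy1b1, a subunit of the nitric oxide receptor, was past 2-fold higher in the Pdgfra-positive contractile-rich cells of VApcMinL.

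Across 34 points, the 17 clusters in each library, some other genes followed the members closely. Highest with the sum, by Pearson's r of log2 CPM over 6261 genes, were Myl9 (0.96), Tpm1 (0.95), Mylk (0.95), Tpm2 (0.94), Map3k20, Synpo2, Arhgap42 and Wtip (0.91). For Acta2 they were Tagln (0.99), Tpm2 (0.95), Synpo2, Myh11, Myl9, Cspg4, Ednra and Gm13889 (0.85), and for Myh11 the transcription factor gene Tbx2 (0.91), Tagln, Acta2, Rgs4, Des, Lmod1, Gm13889 and Cox4i2 (0.88). Myl9, Mylk and Synpo2 are members and part of the sum, so their r with the sum is partly built in. Among the members themselves r ran from 0.64 (Cnn1 with Mylk) to 0.99 (Acta2 with Tagln). The points share libraries and the pericyte-like cluster stands far from the rest, so these values describe the order of clusters and are not tested.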

How the data were processed

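The deposited files hold raw UMI counts per gene and barcode for all barcodes, 1 matrix per library, made by the authors with Cell Ranger (2.1.1 per the labels, 3.1.0 per the file headers) without normalization. Barcodes with at least 1000 UMIs and at most 20% mitochondrial UMIs were kept. UMIs were summed over cells and divided by all UMIs of those cells. Ratios are of VApcMinL over ApcMin unless named otherwise. Intervals are exact 95% limits, and a gene was compared with at least 50 UMIs over the cells compared. Thinning drew 1000 UMIs per cell without replacement (seed 7).
Cells were integrated and clustered with Seurat 5.3.0 in R 4.3.3 (canonical correlation anchors, 20 principal components, 20 neighbours, Louvain at resolution 0.2) with the 10 members left out of the variable genes, and clusters were named from marker lists. Other steps used Python 3.11.15 with numpy 2.4.6, scipy 1.17.1, pandas 2.3.3, scanpy 1.11.5 and matplotlib 3.10.9. Doublets were kept, and an alternative left out the highest Scrublet scores, 461 and 591 cells. Other alternatives moved the UMI minimum, the mitochondrial maximum, the Pdgfra threshold and the contractile-rich definition, trimmed cells by detected genes, or used other clusters. Of the kept barcodes 24 occur in both libraries, none of them contractile-rich.
The members and lists were chosen with earlier results of these data known. Genes named beside them are Lef1, the leading genes that describe a cluster, those of the marker and apparatus lists, the 8 most like the sum, Acta2 or Myh11 over clusters among genes with a mean of at least 20 CPM, the 10 highest and 10 lowest between Pdgfra-positive and Pdgfra-negative contractile-rich cells past 2-fold in both libraries, and the 5 highest and 5 lowest between libraries in these cells among genes with at least 200 UMIs. Mitochondrial, Xist and Y-linked genes were left out.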

Additional observations from a re-analysis of the deposited data

How the results depend on the processing

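Over the shares of contractile-rich cells, the summed log2 ratios and the summed levels of the pericyte-like and subepithelial Pdgfra-high-like clusters, 51 of 80 values under an alternative stayed within the counting interval of the reported value, and no summed ratio changed its sign. The threshold of 0.2% and the settings that leave out contractile-rich cells or clusters were chosen after seeing the data. With 1 library per genotype no paired analysis could be done.
The share of kept cells that were contractile-rich was 1.20% in ApcMin and 2.94% in VApcMinL at a threshold of 0.2%, 0.448% and 1.22% at 0.5%, 0.523% in VApcMinL at 2%, and 2.05% and 4.14% when at least 5 members detected was the definition. Their Pdgfra-positive share was 63.7% and 52.2% at 0.2%, 31.4% in VApcMinL at 0.5% and 5.88% in ApcMin at 2%. With at least 5 members it was 82.7% and 69.9%. The shares in ApcMin at 0.5% and in VApcMinL at 2% stayed within the counting interval of the reported value and are not given. Pdgfra-positive were 10 of the 12 cells of ApcMin at 0.5 to 1%, and 7 of the 22 of VApcMinL at 1 to 2%.
The summed log2 ratio in Pdgfra-positive cells was 0.54 with at most 10% mitochondrial UMIs, 0.47 with at least 2 Pdgfra UMIs, 0.37 with thinned cells and 0.39 without contractile-rich cells. In Pdgfra-negative cells it was 1.81 and 1.35 with at most 10% and 40% mitochondrial UMIs, 1.38 with the divide at 2 Pdgfra UMIs, 1.39 without the highest Scrublet scores, 1.24 with thinned cells, 1.61 without contractile-rich cells, 0.79 without the Ctrb1-led and erythroid-like clusters and 1.31 without the epithelial-like cluster as well. The cause was not tested.
With the members used for clustering, the name subepithelial Pdgfra-high-like went to a cluster that held nearly all of the pericyte-like cells. It had Wif1 and 7 of the members among its 10 leading genes and stood at 6524 and 5787 CPM. The unnamed Adamdec1-led cluster that held the former subepithelial Pdgfra-high-like cells stood at 774 and 1148. Both clusters took in other cells.
Single members kept the sign of their ratio in 98 of 100 values in Pdgfra-positive cells and in 120 of 120 in Pdgfra-negative cells. Those past 2-fold were past it in 28 of 30 and 112 of 120. These counts include values from under 50 UMIs, which were not otherwise compared. Among them are Myh11, Lmod1 and Actg2 in thinned Pdgfra-positive cells, and Cnn1 in Pdgfra-negative cells without contractile-rich cells. Thinning was done before Pdgfra was called. It left Myh11, Lmod1, Actg2 and Cnn1 under 50 UMIs in Pdgfra-positive cells, where Synpo2 reached 2-fold, and Des, Mylk and Myl9 under 2-fold in Pdgfra-negative cells.
With 1 library per genotype and 5 and 11 Pdgfra-positive contractile-rich cells, members with few UMIs in these cells (Cnn1, Lmod1, Synpo2, Des) could not be compared between the libraries.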

Other observations

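Among the Pdgfra-negative contractile-rich cells outside the pericyte-like cluster, 3 in ApcMin and 21 in VApcMinL had under 2500 UMIs, a limit chosen after the values were seen. In these shallow cells Actg2 gave 8.71% and 9.69% of the member UMIs, Mylk 22.6% and 15.1%, and Myh11 1.61% and 3.81%, against 5.55% and 6.97%, 12.2% and 11.9%, and 9.36% and 11.1% in all cells of that group.
Immunoglobulin transcripts were also found in contractile-rich cells. The plasma cell marker list, led by Igkc, stood at 2482 and 3091 CPM in the Pdgfra-positive and 2529 and 5585 CPM in the Pdgfra-negative ones.

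The members were also present in the barcodes with 10 to 100 UMIs, taken as empty droplets. Their sum there was 532 CPM in ApcMin and 288 in VApcMinL, with Acta2 at 154 and 41.3, Tagln at 114 and 38.0, Myl9 at 106 and 39.7 and Myh11 at 46.7 and 17.0, all lower in VApcMinL. Des, at 14.4 and 36.4, was higher in VApcMinL, and so was Lmod1. Mylk was higher there too, with overlapping intervals, at 63.1 CPM (52.4 to 75.3) and 82.6 CPM (67.3 to 100). In plasma cell-like, erythroid-like and Ctrb1-led cells the sum was instead higher in VApcMinL, as given above. Whether the member counts of those cells come from free RNA was not tested.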
